A study of Homo sapiens with 26 samples.

Results

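HNF4A and its neighbours on chromosome 20 were followed as 1 set of 10 genes: HNF4A itself, the antisense transcript R3HDML-AS1, and the flanking genes OSER1, OSER1-DT, FITM2, TTPAL, SERINC3, PKIG, ADA and CCN5. The members were given as a list of symbols around HNF4A, which does not hold every gene of the region. The rule itself uses no measured value, but the list was chosen with earlier results of these data known. They are 10 of the 62754 genes in the largest count table.

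Poly(A)-selected RNA was sequenced from Panc10.05, BxPC3 and AsPC-1, which are established cell lines of human pancreatic ductal adenocarcinoma. All cells grew in RPMI-1640 with serum. In Panc10.05, an HNF4A isoform labelled P1-a2 or P2-a8, or GFP in the control NC, was induced with doxycycline, with P2-a8 cells given 12.5 ng/mL and the others 25 ng/mL. In BxPC3, the groups were P1-a2, P2-a8 and an NC labelled EV, and all of them received doxycycline at 500 ng/mL. Each of these 6 groups had 2 libraries. In AsPC-1, CRISPR interference was directed at HNF4A with guides against promoter P1 (sgP1E and sgP1J), against promoter P2 (sgP2D and sgP2G) or against both isoforms (sgDual2 and sgDual3), beside the control guide sgNC. Each guide had 2 libraries, which gives 4 for each of sgP1, sgP2 and sgDual and 2 for sgNC. Results by target pool the libraries of both guides, which are not independent replicates of a target. Their p-values do not separate the spread between guides from that between libraries. The guides of a target can differ: sgP1E and sgP1J differed in 14.5% of all genes. Where the guides bind was not analysed here, and nothing states that replicate libraries came from separate cultures, so p-values measure the spread between these libraries, which may be technical.

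HNF4A encodes a nuclear receptor that acts as a transcription factor in liver, gut and pancreas. It is transcribed from a proximal promoter, P1, and a distal promoter, P2, which give proteins with different amino-terminal ends. CRISPR interference places an inactive Cas9 on the DNA and lowers transcription that starts near it, so genes that start close to a guide's site can be measured beside the target. The flanking genes have unrelated roles: FITM2 serves lipid droplet formation, TTPAL resembles the tocopherol transfer protein, SERINC3 is a membrane protein that restricts retroviruses, PKIG inhibits protein kinase A, ADA deaminates adenosine, and CCN5 is a secreted matrix-associated protein.

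On GRCh38 with the GENCODE v29 annotation, HNF4A (ENSG00000101076) spans chromosome 20 from 44355700 to 44434596 on the plus strand. Its 5 transcripts from P2 start between 44355700 and 44355805. The 4 transcripts from P1 start between 44401270 and 44401301, 45.6 kb downstream. R3HDML-AS1 (ENSG00000226812), an antisense RNA gene, lies on the minus strand from 44347552 to 44355185, so that its annotated start is 515 bases from the first P2 start and the genes run apart from each other. It overlaps R3HDML by 3684 bases, but R3HDML had 0 counts in all 26 libraries. Upstream of HNF4A there were 4 members. OSER1 (44196496 to 44210791, minus strand) and its divergent noncoding transcript OSER1-DT (44210960 to 44226027, plus strand) start 169 bases apart, and FITM2 (44302838 to 44311169, minus strand) lies between them and R3HDML-AS1. Downstream were 5 members: TTPAL (44475886 to 44494603, plus), SERINC3 (44496221 to 44522109, minus), PKIG (44531785 to 44624247, plus), ADA (44619522 to 44652233, minus) and CCN5 (44714844 to 44728509, plus). PKIG and ADA overlap by 4726 bases on opposite strands. The strand setting of the counting is not given in the sources used here, so reads from those bases may have been assigned to either gene or to neither.

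The promoters that the results turn on are printed below as the 250 bases before the RefSeq start (build GRCh38.p14), on the strand of the gene. The RefSeq promoter table used here was matched for 8 of the 10 members. The pair around P2 is shown because both genes start there, P1 because guides were directed at it, and OSER1 because it shares its start region with OSER1-DT. Capitals mark matches to the motifs searched on both strands.
HNF4A P2 promoter, chr20:44355449-44355698, plus strand: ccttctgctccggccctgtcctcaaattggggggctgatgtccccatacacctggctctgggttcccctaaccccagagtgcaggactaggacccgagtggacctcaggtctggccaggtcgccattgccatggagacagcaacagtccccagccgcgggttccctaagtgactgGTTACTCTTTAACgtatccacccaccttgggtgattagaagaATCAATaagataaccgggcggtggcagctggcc
R3HDML-AS1 promoter, chr20:44355243-44355492, minus strand: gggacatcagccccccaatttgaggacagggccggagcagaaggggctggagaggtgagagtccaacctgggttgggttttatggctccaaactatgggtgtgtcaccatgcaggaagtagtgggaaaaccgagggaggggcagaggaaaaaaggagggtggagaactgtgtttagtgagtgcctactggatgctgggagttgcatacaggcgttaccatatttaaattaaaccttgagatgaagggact
HNF4A P1 promoter, chr20:44400989-44401238, plus strand: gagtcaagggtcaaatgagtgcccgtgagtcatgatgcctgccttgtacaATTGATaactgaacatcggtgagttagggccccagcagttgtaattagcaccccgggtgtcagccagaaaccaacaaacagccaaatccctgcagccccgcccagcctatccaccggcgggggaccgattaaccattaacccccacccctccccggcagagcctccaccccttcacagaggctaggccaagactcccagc
OSER1 promoter, chr20:44210772-44211021, minus strand: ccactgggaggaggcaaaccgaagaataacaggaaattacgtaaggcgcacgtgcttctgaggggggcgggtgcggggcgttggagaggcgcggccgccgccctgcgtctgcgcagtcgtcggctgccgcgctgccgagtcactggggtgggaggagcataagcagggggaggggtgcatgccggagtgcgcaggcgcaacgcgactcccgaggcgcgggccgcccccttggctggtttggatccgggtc
The RefSeq starts of R3HDML-AS1 (44355242) and of HNF4A at P2 (44355699) are 457 bases apart, and the first 2 windows share 44 bases, read on opposite strands. The P2 window holds an inverted repeat (GTTA and TAAC with 5 bases of any kind between them) from 75 to 63 bases before the start, a motif that 0.236% of 35116 RefSeq promoters of the same length hold. It also holds the ONECUT core ATCAAT from 33 to 28 bases before the start. The P1 window holds that core in its reverse form, ATTGAT, from 200 to 195 bases before its start, and 5.58% of the promoters hold it on either strand. The HNF4 core CAAAGTCCA, the GATA core GATAAG and the TATA box TATAAA, held by 0.325%, 5.65% and 10.7% of promoters, were searched too and had no match in these 4 windows. No motif overlapped another, and these matches are a description of the letters only.

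Library totals lay between 34618745 and 46827673 counts for Panc10.05, between 26369154 and 37483772 for BxPC3, and between 26079388 and 50662077 for AsPC-1. After edgeR's filter on low counts, 17247, 17635 and 16992 genes were tested. Of the 10 members, 9 passed in Panc10.05 (not R3HDML-AS1), 8 in BxPC3 (not R3HDML-AS1 and CCN5) and 10 in AsPC-1. The summed level of 5 epithelial markers was at least 4672 CPM (counts scaled to the TMM-adjusted library total) in every library. The 5 fibroblast markers summed to between 131.5 and 300.1 CPM in AsPC-1, to at most 18.8 CPM in BxPC3 and to at most 7.16 CPM in Panc10.05, and their part in the results was not tested. Below, a gene is said to rise or fall where the adjusted p of edgeR's quasi-likelihood test was under 0.05.

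R3HDML-AS1, the noncoding transcript that starts beside P2, was at 0 counts in every sgP2 library and at 3 counts or fewer in each sgDual library. It was kept with guides against P1. With sgNC it had 70 and 66 counts, which is 2.22 and 2.12 CPM. The sgP2D and sgP2G libraries, 4 in all, each had 0 counts. The fold reduction was at least 88.95 when set against the floor of 3 counts over the group, and the adjusted p was 4.07e-05. With sgDual, the counts were 0 and 2 under sgDual2 and 1 and 3 under sgDual3. Those 6 counts put R3HDML-AS1 at 1.98% of its sgNC level, with an exact 95% counting interval of 0.714% to 4.42% (adjusted p 2.12e-06). With guides against P1 the counts were 128 and 70 for sgP1E and 54 and 60 for sgP1J. That is 96.1% of the sgNC level, with a counting interval of 78.3% to 118%, and the adjusted p was 0.966. The sgP2 and sgNC libraries did not overlap, while the sgP1 libraries lay on both sides of sgNC. Counting intervals and floors cover counting error only, and in bulk RNA fewer cells with a transcript and less of it per cell cannot be told apart.

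The contrast of sgP2 with sgP1, which uses no sgNC library, separated the 2 targets as well. R3HDML-AS1 was at 0 counts in 4 libraries against 54 to 128 in the other 4 (adjusted p 7.77e-06). The sgP2 and sgDual calls against sgNC and this one stayed past the threshold in every alternative run, each library left out in turn included. Of the other members, ADA alone was called between sgP2 and sgP1, beside 4.3% of all genes (2.17% higher and 2.13% lower).

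HNF4A was lower than sgNC in all 12 libraries with a targeting guide. It was at 205.7 and 219.8 CPM with sgNC, 144.2 and 145.5 CPM with sgP1E, and 118.4 and 108.9 CPM with sgP1J. The sgP2D libraries had 93.9 and 91.4 CPM and the sgP2G libraries 84.0 and 76.8 CPM. Under sgDual2 it was at 3.19 and 10.3 CPM and under sgDual3 at 4.83 and 13.6 CPM. As a share of the sgNC mean these are 68.1%, 53.4%, 43.5%, 37.8%, 3.17% and 4.34% for the guides in that order, and the ranges of sgP1, sgP2 and sgDual do not overlap. In the fit of all guides the fall was past the threshold for sgDual2 (log2 fold change -4.98, SE 0.50, adjusted p 6.67e-05) and sgDual3 (-4.51, SE 0.48, adjusted p 9.7e-05). It was not for sgP1E (adjusted p 0.476), sgP1J (0.379), sgP2D (0.117) or sgP2G (0.0742). That outcome depended on the fit: with only the libraries of the guide and of sgNC, the adjusted p was 0.0145, 0.00552, 0.000545 and 0.000271 for these 4 guides. The sgP2G fall also passed without either library of sgDual2 (0.0343 and 0.0337) or of sgDual3 (0.0401 each). With both guides of a target in 1 group, HNF4A changed by -0.72 with sgP1 (adjusted p 0.615), by -1.30 with sgP2 (0.0751) and by -4.73 with sgDual (6.25e-06). The sgP2 value passed with DESeq2 (0.0375), in the fit of sgP2 and sgNC alone (0.000223) and without sgDual2 replicate 1 (0.0245) or sgDual3 replicate 2 (0.0391). In the sgP2 libraries, then, R3HDML-AS1 was at 0 counts while HNF4A was still read at 76.8 CPM or more.

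**Figure D1:**
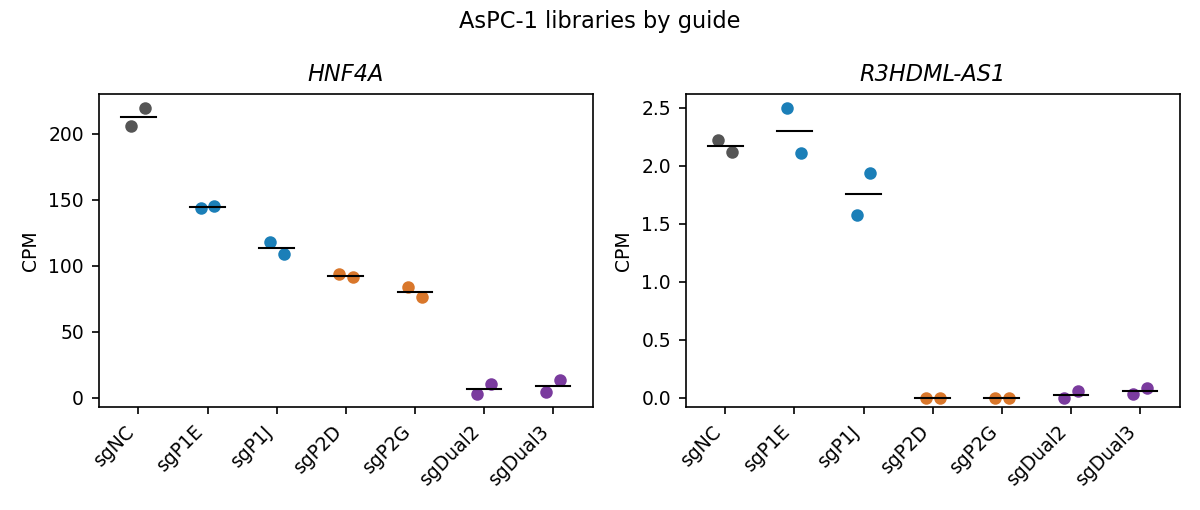
Level of HNF4A (left) and R3HDML-AS1 (right) in AsPC-1 in CPM on linear axes. Each point is 1 library, the line is the mean of the 2 libraries of a guide, and colour gives the target. HNF4A steps down from sgNC to sgP1, sgP2 and sgDual, while R3HDML-AS1 is near its sgNC level under the sgP1 guides, at 0 in the 4 sgP2 libraries and at 3 counts or fewer in each sgDual library.

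In both induced lines R3HDML-AS1 was not detectable at this depth. It had 0 counts in the 6 Panc10.05 libraries, which allows up to 0.0123 CPM over those libraries. In BxPC3 it had 1 count in all 6 libraries together, in P2-a8 replicate 2, where 3 counts would correspond to 0.015 CPM. HNF4A was induced in the same cells. In Panc10.05 it was at 0.24 and 0.058 CPM (10 and 2 counts) in NC, 10.7 and 12.98 CPM under P1-a2, and 37.7 and 37.6 CPM under P2-a8. In BxPC3 it was at 1.08 and 0.464 CPM (29 and 17 counts) in NC, 9.76 and 11.6 CPM under P1-a2, and 12.6 and 14.2 CPM under P2-a8. Counts per gene do not separate RNA of the induced construct from RNA of the HNF4A locus, so these values do not measure the locus itself.

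Of the 10 members in AsPC-1, 0 were past the threshold with sgP1 against sgNC, where 0.265% of all genes tested were. At an unadjusted p under 0.05 in edgeR there were 2, OSER1 and PKIG, and DESeq2 called 0. OSER1 was called lower without guide sgP1J (-0.25, adjusted p 0.0354). With sgP2 against sgNC, 2 members rose and 1 fell, against 3.42% of all genes called (1.66% higher and 1.76% lower). With sgDual, 4 rose and 3 fell, against 35.6% (17.8% in each direction). HNF4A, the target itself, is counted among the 3 that fell and in the medians that follow. So is R3HDML-AS1, which is also the 1 that fell with sgP2. The median absolute log2 fold change of the members was 0.12 for sgP1, 0.57 for sgP2 and 0.81 for sgDual, beside 0.12, 0.16 and 0.30 for all genes tested. R3HDML-AS1 and HNF4A had the largest changes with sgP2 and sgDual, so these medians do not describe the flanking genes alone. With sgP2, OSER1, FITM2, TTPAL and SERINC3 changed by -0.03, -0.03, 0.06 and 0.06. OSER1-DT, ADA, CCN5 and PKIG changed by 0.36, 0.78, 1.01 and 1.12. The 3 comparisons share the 2 sgNC libraries.

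ADA, adenosine deaminase, moved in opposite directions with sgP2 and sgDual. It was at 6.59 and 8.89 CPM with sgNC, 7.51 and 8.82 CPM with sgP1E, and 5.93 and 6.46 CPM with sgP1J. The sgP2D libraries had 12.9 and 16.1 CPM and the sgP2G libraries 11.9 and 12.5 CPM. With sgDual2 it was at 3.70 and 4.82 CPM and with sgDual3 at 4.09 and 4.85 CPM. Every sgP2 library was above, and every sgDual library below, all the sgNC and sgP1 libraries. With each guide ADA was higher in replicate 2 than in replicate 1, so leaving out a single sgNC library also shifts that balance. A block for the replicate number ended none of the ADA calls that follow here. ADA rose with sgP2 by 0.78 on the log2 scale (SE 0.18, adjusted p 0.0301) and fell with sgDual, at -0.82 (SE 0.18, adjusted p 0.00239). Against sgP1, which shares no library with it, sgP2 was higher by 0.89 (SE 0.14, adjusted p 0.0033). The sgP2 call against sgNC ended without sgNC replicate 1 (0.57, adjusted p 0.335) or 2 (1.01, 0.0957), without sgP2D replicate 1 (0.0556) or 2 (0.0621), and without guide sgP2D (0.139) or sgP2G (0.0526). The sgDual call ended without sgNC replicate 2 (-0.59, adjusted p 0.0619).

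The direct contrast of sgDual with sgP2 was added after these ADA values had been seen, so it describes them and tests nothing new for ADA. In it ADA differed by -1.61 (SE 0.15, adjusted p 9.59e-07), and 46.4% of all genes were called. Of the other members, OSER1 (0.22, adjusted p 0.00799), OSER1-DT (0.72, 0.000669), SERINC3 (0.26, 0.00628) and CCN5 (1.78, 0.00476) were higher with sgDual and HNF4A was lower (-3.43, 1.16e-05). R3HDML-AS1 was called too (adjusted p 0.0251), on 6 counts against 0. Its call ended without sgDual2 replicate 2 (0.0503), without sgDual3 replicate 2 (0.0682) and without guide sgP2D, sgP2G or sgDual3 (0.0828, 0.0971 and 0.109), and no fold is given for it. Leaving out a whole guide also ended the calls of SERINC3 (0.0662 without sgP2D and 0.0614 without sgDual2), OSER1 (0.0537 without sgP2G) and CCN5 (0.0579 without sgP2G and 0.0569 without sgDual2).

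PKIG, which encodes an inhibitor of protein kinase A, was higher than sgNC in all 12 libraries with a targeting guide. It had 1.39 and 1.41 CPM (44 counts in each) with sgNC, 2.22 and 2.74 CPM with sgP1E, and 1.75 and 1.81 CPM with sgP1J. With sgP2D it had 2.82 and 3.52 CPM and with sgP2G 2.91 and 2.93 CPM. The sgDual2 libraries had 1.92 and 3.09 CPM and the sgDual3 libraries 2.15 and 2.64 CPM. The sgP2 range lay above sgNC and sgP1, and the sgDual range overlapped that of sgP2. PKIG rose with sgP2 by 1.12 (SE 0.23, adjusted p 0.018) and with sgDual by 0.80 (SE 0.23, adjusted p 0.014). With sgP1 its difference from sgNC was 0.60 (SE 0.23, adjusted p 0.423). Leaving out either sgNC library ended both calls (0.175 and 0.167 for sgP2, 0.104 and 0.0707 for sgDual), as did leaving out guide sgP2D (0.074) or sgP2G (0.0544) for sgP2. PKIG rose with both targets while ADA, which overlaps it on the other strand, rose with sgP2 and fell with sgDual.

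OSER1-DT, the divergent transcript of OSER1, rose with sgDual. Its level was 4.40 and 5.56 CPM with sgNC and between 4.19 and 7.07 CPM in the 4 sgP1 libraries. With sgP2 it was at 6.46, 7.25, 5.81 and 6.11 CPM. The sgDual libraries stood at 10.65 and 10.3 CPM for sgDual2 and 10.5 and 10.7 CPM for sgDual3, above every other AsPC-1 library. That is a rise of 1.08 on the log2 scale (SE 0.18, adjusted p 0.000345), which stayed past the threshold in every alternative run. With sgP2 it was 0.36 (SE 0.18, adjusted p 0.304). OSER1, which starts 169 bases away on the other strand, had 50.8 and 55.3 CPM with sgNC and between 58.0 and 62.7 CPM with sgDual, which do not overlap. Its log2 fold change was 0.19 (SE 0.07) with an adjusted p of 0.0569, and it passed with DESeq2 (0.0402), in the fit of sgDual and sgNC alone (0.0328) and without sgP1J replicate 2 (0.0205).

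SERINC3 rose with sgDual, by 0.32 on the log2 scale (SE 0.09, adjusted p 0.00932). It was at 213 and 229.7 CPM with sgNC and between 260.9 and 293.6 CPM in the 4 sgDual libraries, which do not overlap. Without sgNC replicate 1 the adjusted p was 0.131, and without guide sgDual2 it was 0.0554. CCN5 was low throughout, with 3 counts in each sgNC library. The sgDual libraries had 31, 25, 24 and 15 counts, all above the 2 to 20 counts of the other 10 libraries in CPM terms. On the log2 scale CCN5 rose by 2.79 (SE 0.67, adjusted p 0.00479), and 0.0577 was the adjusted p without sgNC replicate 1. The ratio of the summed counts, scaled to the adjusted library totals, was 7.11, with an exact 95% counting interval of 3.15 to 19.9. FITM2 (0.13, SE 0.13, adjusted p 0.445 with sgDual) and TTPAL (-0.03, SE 0.11, adjusted p 0.849) did not pass with any target against sgNC. These 2 are the members nearest to HNF4A and R3HDML-AS1 on either side.

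**Figure D2:**
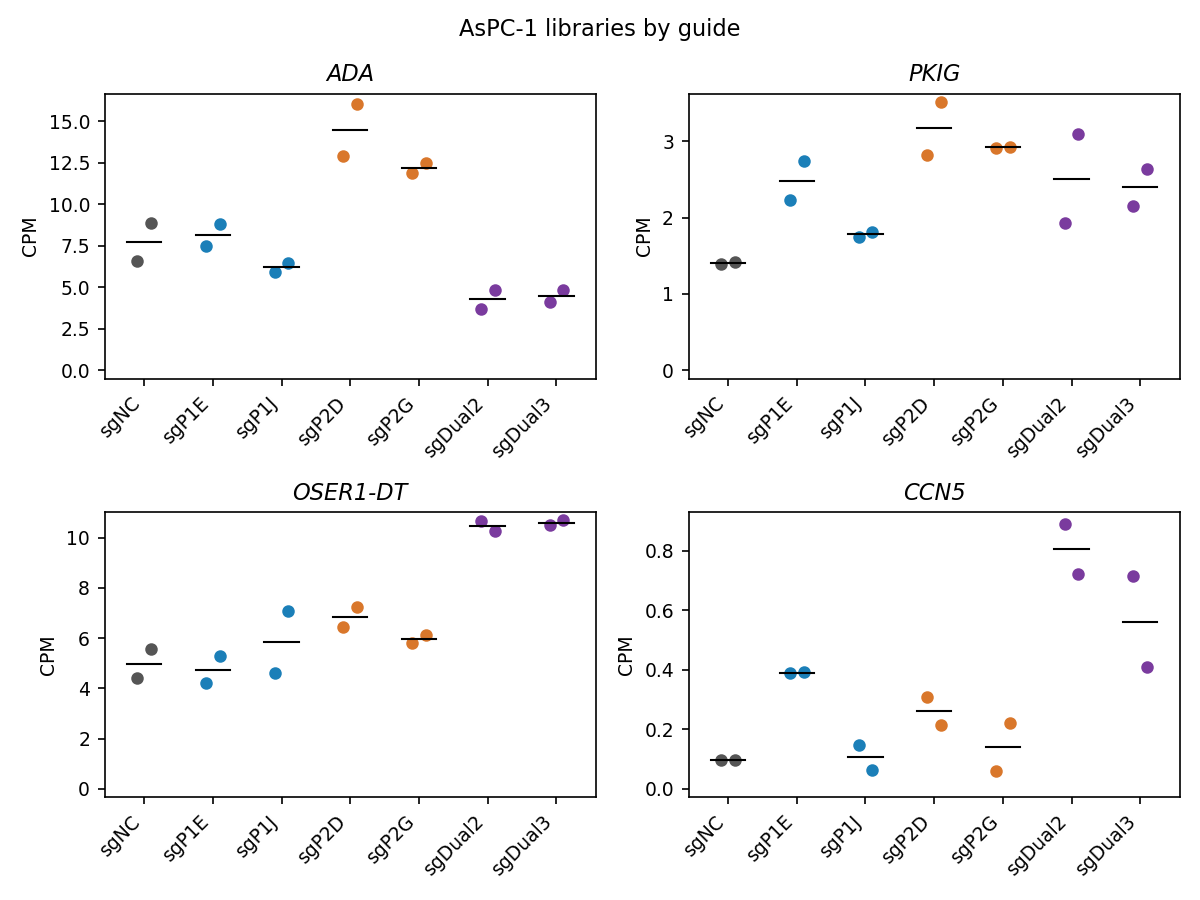
Level of ADA, PKIG, OSER1-DT and CCN5 in AsPC-1 by guide, in CPM on linear axes. Points are libraries and lines are the means of the 2 libraries of a guide. ADA is highest with both sgP2 guides (11.9 to 16.1 CPM) and lowest with both sgDual guides (3.70 to 4.85 CPM), whereas OSER1-DT and CCN5 are highest with the sgDual guides.

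Each guide was then set against sgNC on its own, with 2 libraries each. For sgP1E and sgP1J, 0 members were called, beside 8.62% (4.81% higher and 3.8% lower) and 3.04% of all genes. DESeq2 also called 0, and at an unadjusted p under 0.05 there were 3 for sgP1E (OSER1, PKIG and CCN5) and 0 for sgP1J. Over the alternative fits the count ran up to 4 for sgP1E, reached with a block for the replicate number, and up to 1 for sgP1J. For sgP2D and sgP2G, beside 8.52% (4.46% higher and 4.06% lower) and 8.16% (4.31% higher and 3.85% lower), PKIG and ADA rose and R3HDML-AS1 fell with either guide. PKIG changed by 1.18 (SE 0.24, adjusted p 0.00792) and 1.05 (SE 0.24, adjusted p 0.0164). ADA changed by 0.91 (SE 0.17, adjusted p 0.00463) and 0.65 (SE 0.17, adjusted p 0.0308). For sgDual2 and sgDual3, beside 36.9% and 37.2%, the same 7 members were called: OSER1-DT, SERINC3, PKIG and CCN5 rose and HNF4A, R3HDML-AS1 and ADA fell. ADA changed by -0.86 (SE 0.18, adjusted p 0.0024) and -0.79 (SE 0.18, adjusted p 0.004). The 2 sgP2 guides therefore gave the same calls, as did the 2 sgDual guides, with sgNC shared by all 6 contrasts. How many of all genes were called alike by both guides of a target was not counted. The P1 guides agreed only in having 0 calls. PKIG and CCN5 were near the threshold with sgP1E (adjusted p 0.0548 and 0.0517) and far from it with sgP1J (0.64 and 0.963).

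Several of these calls by guide rested on 1 library. Without sgNC replicate 1, PKIG was no longer called with sgP2D, sgP2G, sgDual2 or sgDual3 (adjusted p 0.0653, 0.1, 0.0821 and 0.11), nor was ADA with sgP2D or sgP2G (0.0673 and 0.265), nor SERINC3 with sgDual3 (0.0815). Without sgNC replicate 2, PKIG was not called with any of these 4 guides (0.0509, 0.0885, 0.058 and 0.0787), nor ADA with sgDual3 (0.0508). PKIG also dropped out without sgP2D replicate 2 (0.0713), sgP2G replicate 1 or 2 (0.0896 and 0.0729), sgDual2 replicate 2 (0.232) and sgDual3 replicate 2 (0.17), each for its own guide. ADA with sgP2G dropped out without sgP2G replicate 1 or 2 (0.123 and 0.141), and SERINC3 with sgDual3 without sgDual3 replicate 2 (0.0719). With sgP1E, some calls were gained instead: PKIG without either sgDual2 library (0.0339 and 0.0322), CCN5 without either sgP2G library (0.0408 and 0.0411) and OSER1, lower, without either sgP1J library (0.0374 and 0.0391). OSER1 was also called higher with sgDual2 without either sgP1J library (0.0415 and 0.0418) and with sgDual3 without sgP1J replicate 2 (0.0453). R3HDML-AS1 with all 4 guides, and HNF4A, OSER1-DT and CCN5 with sgDual2 and sgDual3, kept their calls in every one of these fits.

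Guides of the same target were also compared with each other. Between sgP2D and sgP2G 0 members differed, beside 1.69% of all genes, and between sgDual2 and sgDual3 0 differed, beside 0.883%. DESeq2 called 0 in both, and 0 members had an unadjusted p under 0.05. Between sgP1E and sgP1J, FITM2 (0.35, adjusted p 0.0392), SERINC3 (0.25, adjusted p 0.0279) and CCN5 (1.83, adjusted p 0.0443) were higher with sgP1E, beside 14.5% of all genes, with 7.82% of all genes in that direction. In CPM, FITM2 was at 19.5 and 18.8 against 16.4 and 13.7, SERINC3 at 239.2 and 239.0 against 198.9 and 202.9, and CCN5 at 20 and 13 counts against 5 and 2. These 3 calls were lost in the fit of only those 2 guides (0.186, 0.222 and 0.0921). They were also lost without sgP1E replicate 1 (0.137, 0.092 and 0.128), sgP1E replicate 2 (0.106, 0.125 and 0.113) or sgP1J replicate 2 (0.219, 0.0561 and 0.21). Without sgP1J replicate 1, SERINC3 (0.0845) and CCN5 (0.0673) were lost and OSER1-DT was called lower (-0.59, adjusted p 0.0447). FITM2 and CCN5 also left without either library of sgDual2 (0.059 and 0.0555; 0.0609 and 0.0606) or sgNC (0.0557 and 0.0554; 0.0571 and 0.057). Leaving out a library of sgDual3 ended FITM2 (0.0553 each), and of sgP2D CCN5 (0.0519 and 0.0518).

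**Figure D3:**
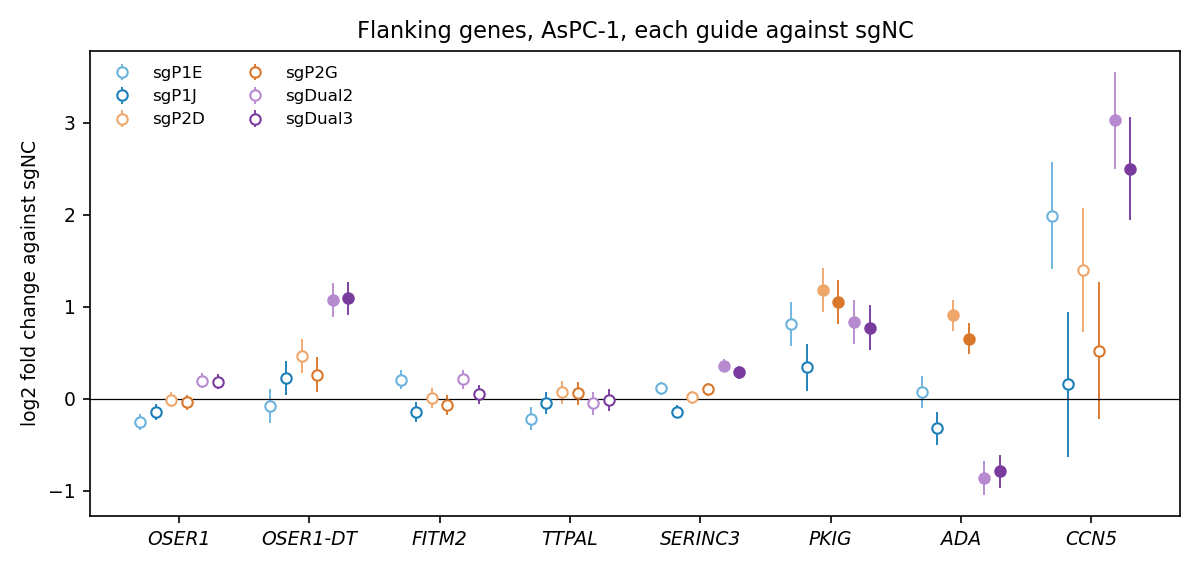
Log2 fold change of the 8 flanking genes in AsPC-1, each guide against sgNC. Points are edgeR estimates from 2 libraries a guide, bars are 1 SE, and filled points are past an adjusted p of 0.05. Both sgP2 guides place ADA above 0 and both sgDual guides place it below, PKIG is above 0 for all 6 guides, and TTPAL stays between -0.22 and 0.07.

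To place the members in their surroundings, all genes within 1 Mb of the HNF4A start were counted. The annotation lists 66, of which 56 are no member, and 20 of these were tested in AsPC-1. With sgP1, 0 of the 20 were called, with sgP2 1, and with sgDual 8 (40%). Of all genes tested, 0.265%, 3.42% and 35.6% were called in the same comparisons. The sgP2 call was PI3, an elastase inhibitor gene 819.2 kb downstream (1.79, SE 0.28, adjusted p 0.00404). With sgDual the smallest adjusted p values belonged to SGK2, a kinase gene at -796.7 kb from the P2 start, upstream (-1.95, adjusted p 9.19e-08), PI3 (3.42, adjusted p 6.83e-07) and MYBL2, a cell cycle transcription factor gene at -688.7 kb (-0.63, adjusted p 0.000475). With sgP2, the called genes of the window lay at 0.5, 176.1, 296.5 and 819.2 kb from the P2 start, and FITM2 and TTPAL, at 44.5 and 120.2 kb, were not called. The members HNF4A itself, OSER1, OSER1-DT, SERINC3 (166.4 kb) and CCN5 (359.1 kb) were not called either. As given above, the calls of PKIG and ADA ended when either sgNC library or either sgP2 guide was left out.

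**Figure D4:**
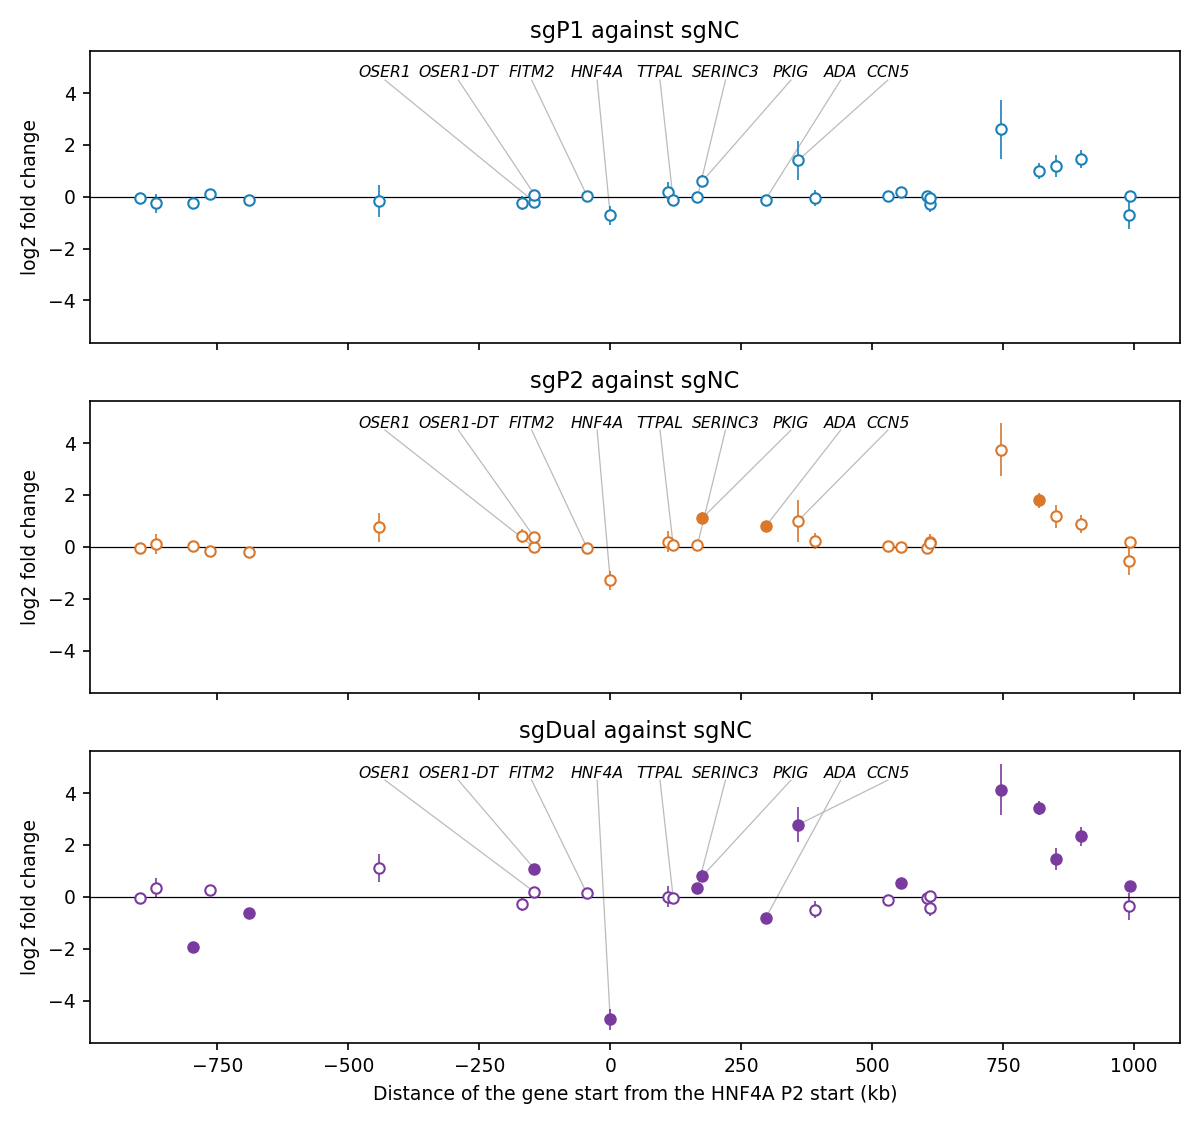
Log2 fold change of the tested genes within 1 Mb of HNF4A in AsPC-1 for sgP1, sgP2 and sgDual against sgNC, by distance of the gene's start from the P2 start in kb (upstream to the left). Points are edgeR estimates, bars are 1 SE, filled points are past an adjusted p of 0.05, and grey lines lead to the members' names. R3HDML-AS1, 0.5 kb from P2, is left out because its 0 counts under sgP2 give no finite fold. With sgP2 the filled points are PKIG, ADA and PI3, and with sgDual filled points stand both upstream and downstream.

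In Panc10.05, where HNF4A was supplied by a construct, the share of members called was near that of genes in general. With P1-a2 against NC, 5 members rose and 1 fell of 9 tested, beside 62% of all genes called, and the median absolute log2 fold change was 0.34 for the members and 0.44 for all genes. The risers other than HNF4A were OSER1-DT (0.93, SE 0.16, adjusted p 2.85e-06), FITM2 (0.41, SE 0.09, adjusted p 5.71e-05), TTPAL (0.34, SE 0.06, adjusted p 1.38e-05) and OSER1 (0.22, SE 0.07, adjusted p 0.00339). OSER1-DT stood at 5.83 and 5.87 CPM against 2.69 and 3.48 CPM in NC, with no overlap. FITM2 stood at 26.2 and 28.2 CPM against 21.8 and 19.0 CPM. CCN5 fell, with 8 and 4 counts against 59 and 52 in NC (-3.34, SE 0.43, adjusted p 8.04e-09). The OSER1 call ended without NC replicate 1 (adjusted p 0.0515). SERINC3 (-0.06), PKIG (0.02) and ADA (-0.20) did not pass.

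With P2-a8 in Panc10.05, 3 members rose, the induced HNF4A among them, and 2 fell, beside 46.2% of all genes. FITM2 was at 26.4 and 24.8 CPM (0.33, SE 0.09, adjusted p 0.00177), and SERINC3 at 263.7 and 253.5 CPM against 230 and 234.9 CPM in NC (0.15, SE 0.06, adjusted p 0.0279). ADA fell to 7.46 and 7.21 CPM from 8.74 and 9.56 CPM (-0.32, SE 0.12, adjusted p 0.0265), and CCN5 had 13 and 18 counts (-1.93, SE 0.36, adjusted p 2.25e-05). OSER1-DT, at 2.80 and 3.27 CPM, overlapped NC (-0.02, adjusted p 0.934). ADA was no longer called with DESeq2 (0.0749) or without P2-a8 replicate 1 (0.0797), P2-a8 replicate 2 (0.126) or NC replicate 2 (0.176). SERINC3 was lost without P2-a8 replicate 1 (0.204) or NC replicate 1 (0.0784), and FITM2 without NC replicate 2 (0.0639). Without NC replicate 1, TTPAL was called (0.21, adjusted p 0.0141).

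The isoforms differed for 6 members in Panc10.05, 3 higher and 3 lower, beside 46.9% of all genes (22.2% higher with P1-a2 and 24.7% lower), with the dose of doxycycline differing as well. Isoform and dose cannot be told apart in this line. OSER1-DT was higher with P1-a2 by 0.96 (SE 0.16, adjusted p 3.35e-06), as were OSER1 (0.23, adjusted p 0.00311) and TTPAL (0.23, adjusted p 0.00294). SERINC3 (-0.21, adjusted p 0.00226), CCN5 (-1.40, adjusted p 0.0282) and HNF4A (-1.66) were lower. CCN5 was not called with DESeq2 (0.0707) or without P1-a2 replicate 2 (-0.88, 0.27) or P2-a8 replicate 2 (-0.97, 0.254). OSER1 was lost without P2-a8 replicate 1 (0.0858) and TTPAL without P1-a2 replicate 1 (0.0541).

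In BxPC3 with P1-a2 against NC, ADA had the largest change of the flanking genes tested. In that comparison 6 of 8 members tested rose and 0 fell, beside 17.1% of all genes called higher and 32% called in all. The induced HNF4A is counted among the 6, and its rise was set by the design. ADA was at 63.9 and 88.6 CPM against 31.1 and 32.8 CPM in NC (1.26, SE 0.17, adjusted p 0.00177). PKIG, the gene that overlaps it, was at 14.9 and 16.3 CPM against 8.26 and 9.31 CPM (0.82, SE 0.11, adjusted p 0.000236). TTPAL was at 60.5 and 59.5 CPM against 39.9 and 41.8 CPM (0.55, SE 0.07, adjusted p 7.34e-05). None of the 3 overlapped NC, and they kept their calls with each library left out. FITM2 (0.33, adjusted p 0.0399) and SERINC3 (0.19, adjusted p 0.0138) also rose. FITM2 was lost with DESeq2 (0.0641) and without NC replicate 1 (0.0653), NC replicate 2 (0.269) or P1-a2 replicate 2 (0.211). SERINC3 was lost without NC replicate 1 (0.089), NC replicate 2 (0.107) or P1-a2 replicate 2 (0.0738). OSER1 (-0.18, adjusted p 0.0886) was called lower without P1-a2 replicate 2 (0.0264).

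With P2-a8 in BxPC3, HNF4A was the only member called, beside 6.99% of all genes. ADA was at 42.3 and 51.1 CPM, above both NC libraries, with a log2 fold change of 0.55 (SE 0.17) and an adjusted p of 0.131. It passed with DESeq2 (0.00305), in the fit of P2-a8 and NC alone (0.00907) and without P1-a2 replicate 1 (0.00394) or 2 (0.00496). OSER1-DT was at 3.20 and 3.46 CPM against 2.19 and 1.99 CPM in NC (0.67, SE 0.20, adjusted p 0.0789). Both isoforms received the same dose here, and 4 members differed between them, beside 22.5% of all genes. TTPAL (0.57, SE 0.06, adjusted p 0.000175), PKIG (0.54, SE 0.11, adjusted p 0.00506) and ADA (0.71, SE 0.16, adjusted p 0.0248) were higher with P1-a2, and OSER1 was lower (-0.29, SE 0.07, adjusted p 0.0156). ADA was lost without P2-a8 replicate 1 (0.144) or 2 (0.0524) or NC replicate 1 (0.0762) or 2 (0.0694). OSER1 was lost without P1-a2 replicate 1 (0.124) or P2-a8 replicate 1 (0.0577) or 2 (0.0841). CCN5 had 2 counts in the 6 BxPC3 libraries together and was not tested.

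**Figure D5:**
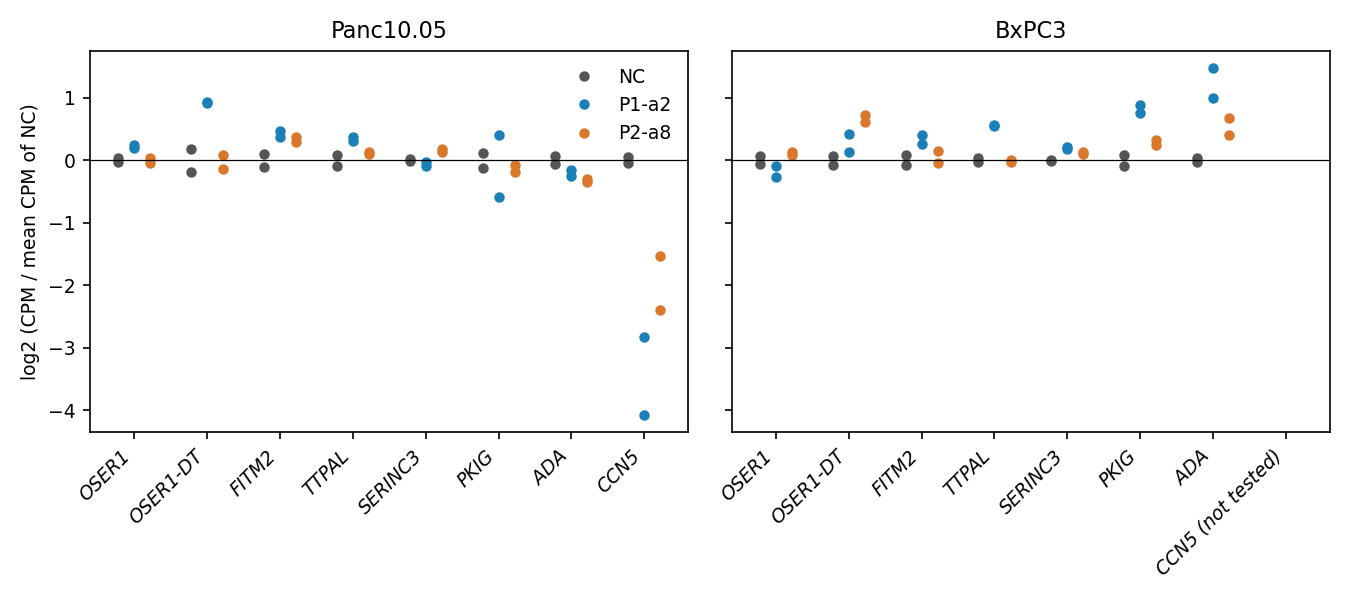
Level of 8 flanking genes in the induced lines as the log2 ratio of each library's CPM to the mean CPM of NC (2 libraries a group; CCN5 was not tested in BxPC3). With P1-a2 OSER1-DT is above NC in Panc10.05, ADA, PKIG and TTPAL are above NC in BxPC3, and CCN5 is below NC in Panc10.05 with both isoforms.

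Among the other tested genes within 1 Mb, 7 of 13 were called with P1-a2 against NC in Panc10.05, 6 of 13 with P2-a8, 6 of 18 with P1-a2 in BxPC3 and 2 of 18 with P2-a8. These are 53.8%, 46.2%, 33.3% and 11.1%, near the 62%, 46.2%, 32% and 6.99% of all genes called in the same comparisons. MYBL2 fell in Panc10.05 with P1-a2 (-2.35, adjusted p 1.36e-27) and with P2-a8 (-1.14, adjusted p 2.31e-17). JPH2, a junctional membrane complex gene, fell in BxPC3 with P1-a2 (-1.41, adjusted p 5.25e-05). PI3, which rose with sgP2 and sgDual in AsPC-1, fell in BxPC3 with P2-a8 (-1.08, adjusted p 0.000635).

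Genes that act with the members were followed as lists. Of 12 tested genes of adenosine and purine salvage, ADA included, 8 fell and 0 rose with sgDual, where 17.8% of all genes fell and 17.8% rose (median log2 fold change -0.38, beside 0.001 for all genes tested). Among them NT5E, which makes adenosine from AMP outside the cell, changed by -1.31 (adjusted p 0.000112), the nucleoside transporter SLC29A1 by -0.94 (1.47e-05) and HPRT1 by -0.69 (6.43e-05). With sgP2, ADA was the 1 list member that rose and 0 fell, beside 1.66% and 1.76% of all genes, and the median was -0.12. In BxPC3 with P1-a2, 5 rose and 2 fell, beside 32% of all genes called, led by ADA and PNP, the next enzyme of the pathway (0.97, SE 0.08, adjusted p 1.05e-05). In Panc10.05 with P1-a2, 4 rose and 7 fell, beside 62% of all genes called, with SAMHD1 at -1.66 (adjusted p 1.4e-23).

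Of 12 protein kinase A genes, 10 were tested in AsPC-1, where with sgP2 PKIG rose and its relative PKIB fell (-1.66, SE 0.31, adjusted p 0.0102). Of all genes, 1.66% rose and 1.76% fell with sgP2. With sgDual 4 rose and 2 fell, beside 35.6% of all genes called. PKIG (0.80) was among the risers, with the anchoring protein gene AKAP12 (0.92, adjusted p 0.000579), and the regulatory subunit gene PRKAR2A fell (-0.46, adjusted p 0.00218). AKAP12 also rose with P1-a2 in Panc10.05 (3.82, adjusted p 0.00125) and in BxPC3 (3.39, adjusted p 0.00408). Of the lipid droplet genes listed with FITM2, 11 were tested in AsPC-1, and with sgDual 2 rose and 4 fell, again beside 35.6%. CIDEC, a lipid droplet fusion protein gene, fell with sgP1 (-1.22, SE 0.14, adjusted p 0.00145) and with sgDual (-3.42, SE 0.15, adjusted p 4.34e-09). It had 0 counts in Panc10.05 NC and was at least 78.89-fold higher with P1-a2 and at least 22.82-fold higher with P2-a8.

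Regulators and partners of HNF4A numbered 24, of which 21 were tested in AsPC-1. With sgP2 0 rose and 1 fell, the nuclear receptor gene NR5A2 (-0.81, SE 0.12, adjusted p 0.00246), beside 1.66% and 1.76% of all genes. With sgDual 4 rose and 5 fell, a share near the 35.6% of all genes called, including CEBPA (-1.86, SE 0.17, adjusted p 2.76e-06), while FOXA1 rose (3.39, SE 0.55, adjusted p 0.000546). In Panc10.05 with P1-a2, 10 of 19 rose and 5 fell, beside 31.5% and 30.5% of all genes, and ONECUT2 was among the risers (3.02, SE 0.11, adjusted p 3.63e-26). Of 24 listed HNF4A targets, 15 were tested in BxPC3, and 12 rose with P1-a2 and 11 with P2-a8, with 0 falling. Of all genes tested, 17.1% and 4.3% rose. The median log2 fold change of the targets was 7.45 and 5.11. A gene near 0 counts in NC can pass the filter through the induced groups alone, and can then hardly fall. The shares of all genes are therefore no fair yardstick for these counts, which are a description only. In AsPC-1, 8 were tested, and with sgDual 3 fell and 0 rose, beside 35.6% of all genes called (17.8% in each direction). Among those that fell were TM4SF4 (-1.83, adjusted p 0.000105) and CDH17 (-0.73, adjusted p 9.48e-05).

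Over the 14 AsPC-1 libraries, which share groups and depth, the genes whose log2 CPM was most like that of HNF4A included MLH3 (Pearson's r 0.967), and most opposed were CITED2 (-0.967), NFKB2 (-0.963) and RDH10 (-0.961). RDH10, a retinol dehydrogenase gene, was at 78.5 CPM with sgNC, 78.9 with sgP1, 82.0 with sgP2 and 223.9 with sgDual. For R3HDML-AS1 the most alike were YIF1B (0.917), NT5DC2 (0.889) and ANKMY2 (0.877), and the most opposed COL18A1 (-0.953), GCLC (-0.908) and CCN2 (-0.886). GCLC, which encodes the catalytic subunit of glutamate-cysteine ligase, an enzyme of glutathione synthesis, was at 79.7, 84.5, 137.7 and 151.1 CPM in the same order of groups. These values are a description with no test, since the 4 groups set most of the spread.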

How the data were processed

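Raw counts for each gene, deposited by the authors in 3 tables, 1 for each cell line, were read for 26 libraries of poly(A)-selected RNA. The submitters' processing notes name STAR 2.7.9a, cutadapt 1.16, featureCounts 1.6.3, DESeq2 1.36.0 and GRCh38. The annotation and the strand setting are not given in the sources used here.

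Each table was fitted separately with edgeR 4.0.16 (R 4.3.3): filterByExpr, TMM scaling and the quasi-likelihood test with Benjamini-Hochberg adjustment over all genes tested, with a threshold of 0.05. All groups of a line, by target or by guide in AsPC-1, shared the estimate of the spread. SE is the absolute log2 fold change divided by the square root of F. CPM is the count scaled to the TMM-adjusted library total. A gene at 0 in a group was set against 3 counts over that group. Of 20 comparisons, 19 were planned and 1, sgDual against sgP2, was added after values were seen.

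All members are named, with up to 3 called genes a comparison within 1 Mb, up to 4 called genes a list, and the most correlated genes over a mean of 5 CPM. The members and lists were chosen with earlier results of these data known. Alternatives were DESeq2 1.42.0, total-count scaling, no filter, a replicate block, 2 groups only, a fold limit and each library or guide left out. The scripts were tested on simulated data. Some genes that the naming rule covers are not reported here.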

Additional observations from a re-analysis of the deposited data

Results flagged for a closer look

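Among the sgP1 libraries of AsPC-1, OSER1 stood apart in sgP1J replicate 2, at 51.61 CPM, from the other 3 at 44.03 to 44.94 CPM. Among the sgP2 libraries, PKIG stood apart in sgP2D replicate 2, at 3.518 CPM, from the other 3 at 2.823 to 2.929 CPM. Chance singles out about 1 in 20 groups in this way.

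Several flanking genes lay on opposite sides of the group they were set against in the induced lines, in every library of both, and the difference between the lines was not tested. The share of all genes that did so was not counted, and with 2 libraries a group such separation can arise by chance. Not all of the changes below passed in edgeR. Those that did not were SERINC3 and ADA with P1-a2 in Panc10.05 (adjusted p 0.374 and 0.14) and OSER1 with P1-a2 in BxPC3 (0.0886). ADA with P2-a8 (0.131) and, between the isoforms, OSER1-DT (0.201) and SERINC3 (0.318) did not pass in BxPC3 either. With P1-a2 against NC, the log2 fold change of ADA was -0.197 in Panc10.05 and 1.256 in BxPC3, that of OSER1 0.221 and -0.176, and that of SERINC3 -0.061 and 0.192. With P2-a8 against NC, ADA was at -0.315 in Panc10.05 and 0.547 in BxPC3. Between the isoforms, P1-a2 against P2-a8, OSER1 was at 0.233 in Panc10.05 and -0.286 in BxPC3, OSER1-DT at 0.956 and -0.38, and SERINC3 at -0.215 and 0.077. Panc10.05 NC carried GFP and BxPC3 NC is labelled EV, and the doses of doxycycline differed, so line, control and dose cannot be told apart here.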

How the results depend on the processing

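Of 1230 alternative values of members called in the comparisons, 1091 kept their direction and side of the threshold and 0 reversed. Over all 1823 alternative values, 4 reversed, none past the threshold: SERINC3 for sgP2 against sgP1 without guide sgP1J (-0.051), HNF4A for sgDual2 against sgDual3 without sgDual2 replicate 1 (0.158) or sgDual3 replicate 2 (0.48), and OSER1-DT for sgP1E against sgP1J without sgP1J replicate 2 (0.035). With 1 library left out, those last 2 values ran from -1.545 to 0.48 and from -0.593 to 0.035. With 2 sgNC libraries, leaving out either leaves 1, which is assumed to vary like the other groups.

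With a log2 fold change of at least 1 required too, the members called numbered 2 in each of the 3 Panc10.05 comparisons. In BxPC3 they were 2 for P1-a2 against NC and 0 between the isoforms. In AsPC-1 they were 4 for sgDual, sgDual2 and sgDual3 against sgNC and for sgDual against sgP2, 1 for sgP2 against sgP1 and 1 for sgP1E against sgP1J.

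In BxPC3, P2-a8 against NC gave 2 with DESeq2, with no filter and with the 2 groups alone. For sgP1E against sgNC the count was 2 with total-count scaling, 3 with no filter and 1 with the 2 groups alone. For sgP1J it was 1 with no filter and 1 with the 2 groups alone, for sgDual2 against sgDual3 1 with no filter, and for sgP1E against sgP1J 0 with the 2 groups alone. Without guide sgP1E, sgP2 against sgP1 gave 4. Without guide sgP1J, sgP1 against sgNC gave 1. Without guide sgP2D or sgP2G, sgP2 against sgNC gave 1 each, and sgDual against sgP2 without sgP2G gave 4. The cause was not tested.

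With 1 library left out, the counts ran from 3 to 5 for P2-a8 against NC in Panc10.05, from 1 to 2 for the same comparison in BxPC3, and from 2 to 4 for P1-a2 against P2-a8 in BxPC3. In AsPC-1 they ran from 1 to 4 for sgP2 against sgNC (1 without either sgNC library), 4 to 8 for sgDual (4 without sgNC replicate 1), 0 to 1 for sgP1E, 1 to 3 for sgP2D, 1 to 4 for sgP2G and 0 to 3 for sgP1E against sgP1J.

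The labels do not say what a replicate number stands for, and the libraries were not treated as paired, since not every correlation of same-numbered deviations was over 0.1: in Panc10.05 it lay between -0.012 and 0.007, in BxPC3 between 0.073 and 0.131 (2 of 3 pairs of groups over 0.1) and in AsPC-1 between 0.077 and 0.339 (15 of 21). It was above 0 for every pair in BxPC3 and AsPC-1, a hint from the data that same-numbered libraries may share something. With each of the 7 AsPC-1 guides, TTPAL was higher in the library numbered 1 and ADA in that numbered 2. With the replicate block the count was 3 for P2-a8 against NC in BxPC3, where ADA (adjusted p 5.22e-05) and OSER1-DT (0.0312) were gained. It was 4 for sgP1E against sgNC, with OSER1 (0.017), TTPAL (0.0236), PKIG (0.00728) and CCN5 (0.0233). Elsewhere the count stayed within 1.5 times. The block added OSER1 for P1-a2 against NC (0.0251) and FITM2 between the isoforms (0.0338) in BxPC3. In AsPC-1 it added OSER1 with sgDual (0.0407), sgDual2 (0.0297) and sgDual3 (0.0377), OSER1-DT with sgP2D (0.0368), TTPAL for sgP2 against sgP1 (0.0477) and ADA for sgP1E against sgP1J (0.0128). It ended no call. Depth limits R3HDML-AS1 and CCN5, which rest on few counts.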
